A study of Mus musculus with 6 samples.

Results

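Schwann cells are the glia of peripheral nerves, and in the embryonic head they descend from the neural crest. The 8 genes described here mark that lineage and glia more widely: Sox10, Erbb3, Foxd3, Fabp7, Cdh19, Mbp, Pmp22 and S100b. They were chosen by symbol, and all 8 were found among the 49492 rows of the deposited gene table and passed the filter on low counts. RNA was sequenced from poly(A)-selected palatal shelves, the paired outgrowths that form the roof of the mouth, of C57BL mice at E14.5. The 3 control libraries were PRMT1 fl/fl, with both copies of the gene flanked by loxP sites. The 3 deletion libraries were Wnt1-Cre; PRMT1 fl/fl, so both groups carried the floxed alleles and only the deletion group carried Cre. Wnt1-Cre is active in the dorsal neural tube and the neural crest that leaves it, and nerve glia, much of the cranial sensory nervous system and most palatal mesenchyme lie within that lineage. No Cre-positive library without the floxed alleles is among the 6, so an effect of Cre and an effect of the deletion cannot be told apart.

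Sox10, an HMG-box transcription factor, is needed throughout the life of a Schwann cell, and it drives Erbb3 and many myelin genes. Erbb3 is the receptor through which axon-derived neuregulin keeps Schwann cell precursors alive. Nerves that enter the palate at this stage carry precursors and immature cells, and myelination of peripheral nerve in the mouse begins around birth. Bulk tissue was measured, so more glial cells and more RNA per glial cell cannot be told apart in any value below.

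Of the 8 genes, only S100b passed the test. It rose 2.03-fold, from 2.39 ± 0.0921 to 4.86 ± 0.588 CPM (counts scaled to the library total with TMM factors; mean ± SD, n = 3 per group here and throughout). Sox10 and Erbb3, the defining transcription factor and receptor, had fold changes of 1.52 and 1.23 and did not pass after adjustment. The myelin membrane genes Mbp and Pmp22 lay slightly on the other side of 0. Outside the 8, Moxd1, a gene of the neural crest lineage, rose 1.82-fold. Deletion library 208 held the highest level of 4 of the 8 genes, and also of 15 of 18 neuron genes.

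The stretches before the annotated start sites of 3 members are shown because they cover the member that rose (S100b), the member with the largest fold change among those that did not pass (Fabp7), and the member known for using separate promoters in Schwann cells and elsewhere (Pmp22). The sequences are from RefSeq on GRCm38.p6, the plus strand in each case, 5′ to 3′, and capitals mark CG pairs. S100b is at chr10:76253586-76253835, Fabp7 at chr10:57784673-57784880, and the Pmp22 stretches are at chr11:63128732-63128981 and chr11:63131207-63131456. The Fabp7 stretch is cut where GENCODE places the first exon.
S100b: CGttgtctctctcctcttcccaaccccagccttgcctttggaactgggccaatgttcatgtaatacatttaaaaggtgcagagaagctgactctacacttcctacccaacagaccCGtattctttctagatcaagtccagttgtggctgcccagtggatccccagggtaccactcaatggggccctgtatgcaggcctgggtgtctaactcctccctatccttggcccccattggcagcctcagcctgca
Fabp7: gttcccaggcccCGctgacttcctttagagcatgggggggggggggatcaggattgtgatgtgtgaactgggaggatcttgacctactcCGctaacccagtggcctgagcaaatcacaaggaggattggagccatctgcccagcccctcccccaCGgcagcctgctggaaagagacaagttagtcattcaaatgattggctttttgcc
Pmp22 most upstream start: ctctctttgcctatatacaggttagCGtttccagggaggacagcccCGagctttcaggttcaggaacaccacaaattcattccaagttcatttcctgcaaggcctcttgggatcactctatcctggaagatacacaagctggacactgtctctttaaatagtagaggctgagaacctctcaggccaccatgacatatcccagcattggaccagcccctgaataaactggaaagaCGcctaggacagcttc
Pmp22 next start: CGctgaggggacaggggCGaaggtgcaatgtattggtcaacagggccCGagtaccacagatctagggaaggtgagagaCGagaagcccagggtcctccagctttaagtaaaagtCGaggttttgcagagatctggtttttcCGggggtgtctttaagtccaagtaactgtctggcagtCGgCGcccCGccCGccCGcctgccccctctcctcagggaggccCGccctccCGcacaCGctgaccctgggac
The S100b window held 2 CG pairs in 250 bases and the Fabp7 window 4, against a median of 6 over 32851 windows of that length (quartiles 2 and 16). The most upstream Pmp22 window held 3 CG pairs and 48.8% G and C, and the next held 14 CG pairs and 61.2%. As background, the upstream Pmp22 promoter is the one used in myelinating Schwann cells, and a downstream one is active in many other tissues. The counts are per gene and do not separate them. The Foxd3 window held 21 CG pairs and 65.6% G and C. The SOX-type motifs ACAAAG and ACAATG, which share the core ACAA, were searched on both strands. Neither was in any of the 7 windows of the 4 matched members (S100b, Fabp7, Foxd3 and Pmp22), and 25.2% of all windows held at least 1 of them. This says only that these letters are absent from these windows. Sox10, Erbb3, Cdh19 and Mbp had no window used here and were not searched. The absence therefore covers only the 4 matched members and is not a complete search of the group, while the 25.2% is over all windows.

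Library totals ran from 44919889 to 50022829 estimated counts. Column headings number the controls 212, 213 and 220 and the deletion libraries 208, 211 and 221, and libraries are called by these numbers. Prmt1 itself ran from 246.26 to 257.86 CPM among controls and from 200.90 to 217.32 CPM after deletion (log2 fold change -0.27 ± 0.05 SE, edgeR adjusted p = 0.0113). Controls 212 and 213 had 15.5 and 16 CPM of Xist, the RNA of the inactive X chromosome, and the other 4 libraries 3380 to 4490 CPM, so control 220 is the only control that shares its sex with the deletion libraries. With p-values of edgeR's quasi-likelihood test adjusted by Benjamini-Hochberg over 19284 genes, 1352 changed between the groups, which is 7.01% (3.65% higher and 3.37% lower). The groups did not overlap for 27.5% of genes, 14.1% higher and 13.5% lower. Nothing in the labels says that each library is a separate embryo, so the p-values rest on a spread that may be partly technical.

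Measured per kilobase of annotated exon, the 8 genes spanned a wide range of levels. In the controls Pmp22 stood at 35.9 ± 3.08 CPM per kilobase, Erbb3 at 7.39 ± 0.547, Sox10 at 2.91 ± 0.246, Fabp7 at 2.85 ± 0.573, Mbp at 1.64 ± 0.172, S100b at 1.61 ± 0.0621, Foxd3 at 1.10 ± 0.102 and Cdh19 at 0.575 ± 0.0864. Sox10 and Fabp7 overlapped in range, as did Mbp and S100b, and the other neighbours in this order did not. In the deletion libraries Fabp7 (4.82 ± 2.32 CPM per kilobase), Sox10 (4.43 ± 1.26) and S100b (3.28 ± 0.396) overlapped in range, and S100b no longer overlapped Mbp (1.44 ± 0.108). Mbp overlapped Foxd3 (1.38 ± 0.127) there. Pmp22, at 33.3 ± 2.22 CPM per kilobase, remained the most abundant, followed by Erbb3 at 9.10 ± 0.986, and Cdh19 the least at 0.656 ± 0.117. The Mbp length of 8469 bases includes exons of transcripts that start far upstream of the myelin protein's own start, which lowers its value on this scale.

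Sox10 (chromosome 15, 79154908 to 79165240, mm10, minus strand) stood at 8.86, 9.64 and 8.14 CPM in controls 212, 213 and 220. Deletion libraries 208, 211 and 221 had 17.76, 12.51 and 10.29 CPM. The groups did not overlap, with 208 far above the rest and 221 close to control 213. Its log2 fold change was 0.61 ± 0.18 (SE, 95% interval 0.20 to 1.02; edgeR adjusted p = 0.0787). The estimated counts behind these values were 370 to 887 per library. Leaving out library 208 gave 0.36, and leaving out 221 gave 0.77, where Sox10 passed (edgeR adjusted p = 0.0117).

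Foxd3 (chromosome 4, 99656299 to 99658622, plus strand), a forkhead factor of early crest and glial precursors, had control values of 2.52, 2.32 and 2.79 CPM, followed by 3.02, 3.55 and 3.06 CPM after deletion. All 3 deletion values lay above the controls, with 211 rather than 208 the highest. Its log2 fold change was 0.33 ± 0.18 (SE; edgeR adjusted p = 0.309), on estimated counts of 115 to 162. Together with S100b and Sox10 it made 3 of 8 members whose deletion libraries all lay above the controls, beside 14.1% of all genes.

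Erbb3 (chromosome 10, 128567523 to 128589652, minus strand) had 42.52, 48.24 and 42.55 CPM among controls. The deletion libraries held 57.88, 58.50 and 47.93 CPM. Libraries 208 and 211 stood together above every control, and 221 lay within the control range, just under control 213. Between the groups Erbb3 differed by 0.30 ± 0.09 on the log2 scale (SE, 95% interval 0.11 to 0.49; edgeR adjusted p = 0.0604), and by 0.39 without library 221 (edgeR adjusted p = 0.00679). With the DESeq2 Wald test, which called 2125 genes in all, Sox10 and Erbb3 both passed (DESeq2 adjusted p = 0.0109 and 0.0195).

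Of 12 neuregulin and ErbB pathway genes, 2 rose and 0 fell, beside 3.65% and 3.37% of all genes. Their median log2 fold change was 0.05, beside -1e-04 over all tested genes. Egfr, the epidermal growth factor receptor, had means of 83.96 ± 6.58 and 112.5 ± 4.87 CPM, a 1.34-fold rise (edgeR adjusted p = 0.00395). Erbb4, a neuregulin receptor with its own kinase, had means of 2.50 ± 0.451 and 4.61 ± 1.24 CPM, a 1.84-fold rise (edgeR adjusted p = 0.0388), a call kept only without library 221 when each library was left out in turn. Erbb2, the kinase partner that Erbb3 needs to signal, measured 118.9 ± 2.70 and 119.2 ± 6.37 CPM, a log2 fold change of 0.00 with a 95% interval of -0.11 to 0.12. The ligand gene Nrg1 was at 4.43 ± 0.604 and 5.20 ± 1.53 CPM (edgeR adjusted p = 0.603).

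**Figure D1:**
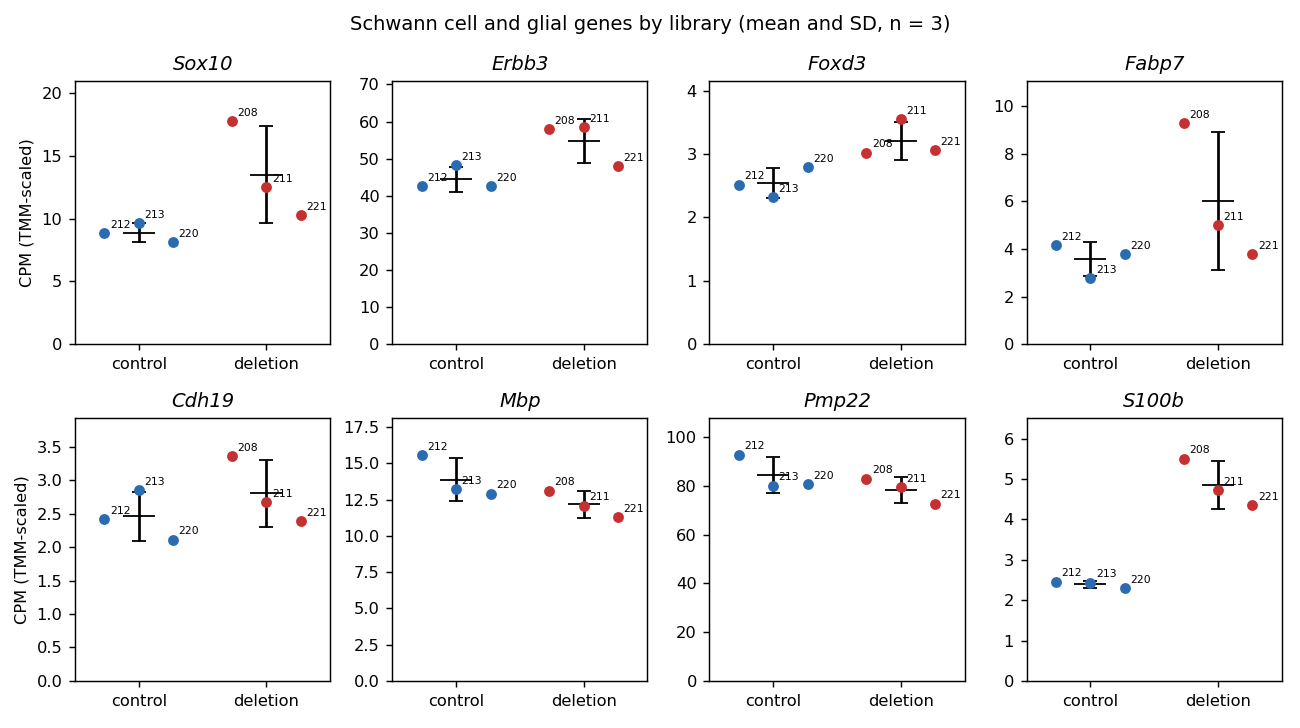
CPM (TMM-scaled, vertical axes from 0) of the 8 members in each library, controls in blue and deletion libraries in red, with mean and SD of 3 libraries. S100b is the panel with the clearest gap, all deletion libraries at 4.35 or more and all controls at 2.46 or less, and in Sox10 and Fabp7 library 208 stands above the other 5.

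S100b (chromosome 10, 76253853 to 76261159, plus strand) encodes a calcium-binding protein used to stain Schwann cells, and it is also made by chondrocytes. Control values were 2.46, 2.43 and 2.29 CPM, and those after deletion were 5.51, 4.73 and 4.35 CPM. The controls lay within a narrow band and every deletion library stood well above it, with 208 the highest. S100b had a log2 fold change of 1.02 ± 0.17 (SE, 95% interval 0.65 to 1.39; edgeR adjusted p = 0.00568), on estimated counts of 104 to 275. That is 1 of 8 members called, beside 7.01% of all genes, so the count itself is no result about the group. A fit with sex as a covariate and a fit to control 220 alone, which make the same contrast, each gave 1.09 and lost the call (edgeR adjusted p = 0.0968 and 0.152).

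Some chondrocyte genes were also higher in the deletion libraries. The 8 cartilage genes summed to 300 to 448 CPM in the controls and 674 to 772 CPM in the deletion libraries. Of them 3 were called higher, beside 3.65% of all genes: Matn1 (cartilage matrilin), Lect1 (chondromodulin) and Col2a1 (the main cartilage collagen). Matn1 had means of 0.49 ± 0.198 and 29.53 ± 5.76 CPM (edgeR adjusted p = 4.87e-05). Lect1 had means of 2.79 ± 1.14 and 19.32 ± 3.79 CPM (edgeR adjusted p = 0.00436). Deletion libraries lay above every control in 6 of the 8 and below in 1, beside 14.1% and 13.5% of all genes. Col2a1 alone made up 181.26 to 271.79 CPM of the sum in the controls and 405.13 to 440.81 CPM in the deletion libraries. Its call was lost without 213, 208 or 221 and with no filter on low counts (edgeR adjusted p = 0.0634 to 0.0769). DESeq2 and limma voom each called 6 of the 8 cartilage genes, beside 2125 and 1171 of all 19284 genes. Col11a2, another cartilage collagen, was lower in every deletion library (log2 fold change -0.52, edgeR adjusted p = 0.184), and S100a1 overlapped between the groups (-0.11, edgeR adjusted p = 0.798). The part of cartilage in the rise of S100b was not tested. Sox9, the cartilage factor that also acts in early glia, rose 1.23-fold (edgeR adjusted p = 0.0391), a call lost without 213, 220, 208 or 211 (edgeR adjusted p = 0.0899 to 0.182), with sex as a covariate (edgeR adjusted p = 0.143), with limma voom (limma adjusted p = 0.0565) and with robust=FALSE (edgeR adjusted p = 0.0543).

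Fabp7 (chromosome 10, 57784881 to 57788450, plus strand), the brain lipid-binding protein of radial glia and Schwann cell precursors, gave 4.15, 2.77 and 3.78 CPM among controls. In libraries 208, 211 and 221 it reached 9.29, 5.0 and 3.77 CPM. Library 208 was the highest of all, and 221 lay among the controls. For Fabp7 the log2 fold change was 0.76 ± 0.33 (SE, 95% interval -0.01 to 1.53; edgeR adjusted p = 0.23) and 0.30 without library 208.

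Cdh19 (chromosome 1, 110888326 to 110977584, minus strand), a cadherin of Schwann cell precursors, was low throughout, with 2.42, 2.85 and 2.11 CPM among controls and 3.36, 2.67 and 2.39 CPM after deletion. The groups overlapped, and 208 was again the highest. For Cdh19 the log2 fold change was 0.19 ± 0.21 (SE, 95% interval -0.27 to 0.65; edgeR adjusted p = 0.659).

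Mbp (chromosome 18, 82475146 to 82585637, plus strand), which encodes myelin basic protein, had control values of 15.56, 13.20 and 12.89 CPM. Its deletion values were 13.11, 12.09 and 11.30 CPM. Only library 208 reached the control range. On the log2 scale the difference was -0.19 ± 0.11 (SE, 95% interval -0.43 to 0.05; edgeR adjusted p = 0.335).

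Pmp22 (chromosome 11, 63128982 to 63159547, plus strand) encodes a membrane protein of compact peripheral myelin that fibroblasts and epithelia also express. Its values were 92.93, 80.09 and 80.69 CPM among controls and 83.05, 79.51 and 72.75 CPM after deletion, with overlapping groups and control 212 the highest. On the log2 scale Pmp22 differed by -0.11 ± 0.07 (SE, 95% interval -0.27 to 0.05; edgeR adjusted p = 0.413).

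**Figure D2:**
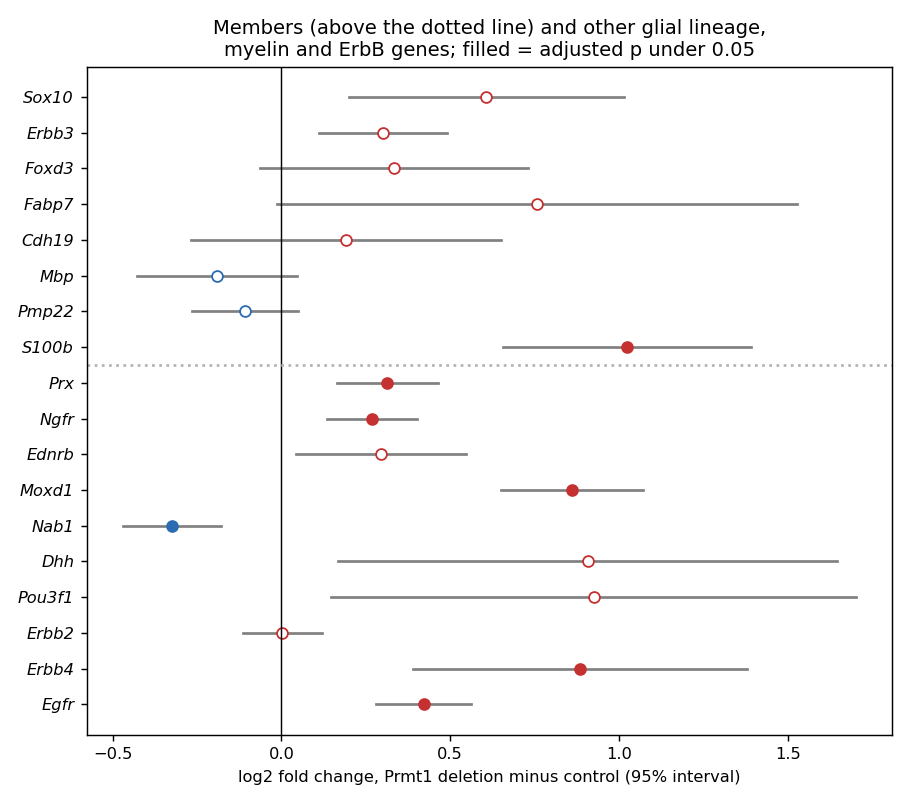
Log2 fold change (Prmt1 deletion minus control, horizontal axis) with its 95% interval for the 8 members and 10 other glial lineage, myelin and ErbB genes, filled where the adjusted p was under 0.05. Intervals of Sox10 and Erbb3 lie above 0 although neither passed after adjustment over all genes, and Mbp and Pmp22 lie left of 0 with intervals that include it.

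Over the 8 members the median log2 fold change was 0.32, beside -1e-04 over all tested genes, and 6 of 8 were above 0, beside 50% of all genes. The members were not uniform. Library 208 was the highest of all 6 libraries in Sox10, Fabp7, Cdh19 and S100b, library 211 in Erbb3 and Foxd3, and control 212 in Mbp and Pmp22. Over all tested genes 18.1% were highest in 208. Among the deletion libraries, 221 had the lowest value in 7 of the members, Mbp and Pmp22 among them, Foxd3 being the exception. The share of all tested genes with their lowest deletion value in 221 was not computed.

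**Figure D3:**
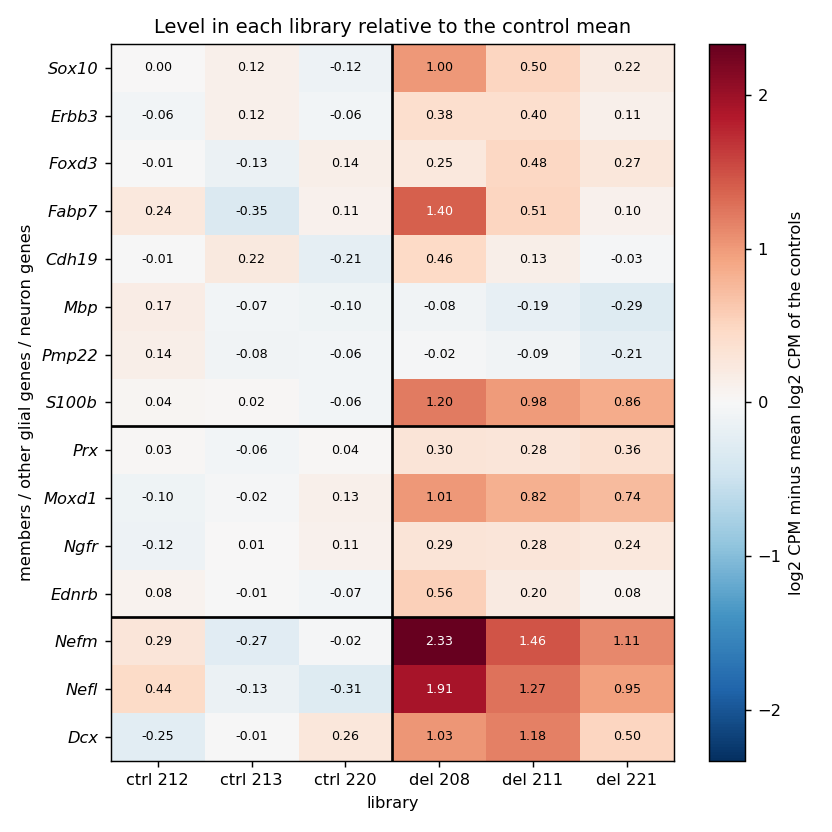
Log2 CPM minus the mean log2 CPM of the controls, for the members (top block), 4 other glial genes (middle) and 3 neuron genes (bottom), by library. In library 208 the difference is 1.00 for Sox10, 1.40 for Fabp7, 1.01 for Moxd1 and 2.33 for Nefm. In library 221 it is 0.22, 0.10, 0.74 and 1.11. The 4 glial and 3 neuron genes outside the members all had higher means after deletion. Among genes not shown, Nab1 and Zeb2 were lower in every deletion library than in any control. The neuron gene Gap43, also not shown, had a log2 fold change of -0.02.

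Levels were next set against Sox10 in the same library, a ratio that does not depend on how libraries are scaled. S100b measured 0.278, 0.252 and 0.281 of Sox10 CPM in the controls and 0.310, 0.378 and 0.423 in the deletion libraries, so it was higher relative to Sox10 in all 3. Mbp went the other way, at 1.76, 1.37 and 1.58 times Sox10 in the controls and 0.738, 0.967 and 1.10 times in the deletion libraries. Pmp22 had means of 9.57 ± 1.13 and 6.03 ± 1.23 times Sox10, and Cdh19 of 0.276 ± 0.0182 and 0.212 ± 0.0214. Erbb3 had means of 5.01 ± 0.214 and 4.20 ± 0.813 times Sox10, where library 208 alone was at 3.26. For these 5 genes the groups did not overlap, and each reached the smallest two-sided p that 3 against 3 can give in an exact permutation test, 0.1 (0.16 adjusted over the 8 ratios compared). No ratio can therefore pass. Sox10 itself was higher in every deletion library than in any control (log2 fold change 0.61). A gene with the same level in all libraries would thus fall relative to it. The log2 fold changes of Mbp and Pmp22 themselves were -0.19 and -0.11, and those of Cdh19 and Erbb3 were 0.19 and 0.30. The Fabp7 ratio overlapped between groups (means 0.407 ± 0.104 and 0.430 ± 0.0826; exact permutation p = 0.8), as did that of Foxd3 (exact permutation p = 0.6). That of Ngfr, a gene outside the 8, also overlapped (means 15.3 ± 2.17 and 12.6 ± 3.1; exact permutation p = 0.4).

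**Figure D4:**
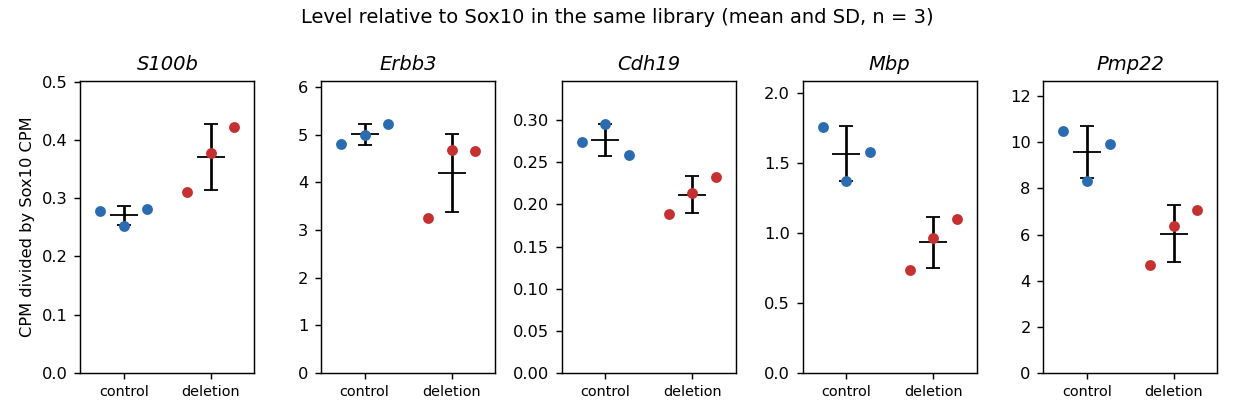
CPM divided by Sox10 CPM in the same library (vertical axes from 0), controls in blue and deletion libraries in red, with mean and SD of 3 libraries. S100b lies higher relative to Sox10 in every deletion library, and Erbb3, Cdh19, Mbp and Pmp22 lie lower. Sox10, the divisor, was itself higher in every deletion library than in any control.

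Of 22 further genes of the Schwann lineage, 2 rose and 1 fell, beside 3.65% and 3.37% of all genes. Their median log2 fold change was 0.17. Moxd1, a copper-dependent monooxygenase related to dopamine beta-hydroxylase, rose 1.82-fold (14.37 ± 1.17 and 26.1 ± 2.59 CPM, edgeR adjusted p = 0.000893). Ngfr, the p75 neurotrophin receptor of crest cells and immature Schwann cells, rose 1.21-fold (134.6 ± 10.6 and 162.1 ± 3.22 CPM, edgeR adjusted p = 0.024). Per kilobase of exon it stood at 39.1 ± 3.06 CPM in the controls, beside 2.91 ± 0.246 for Sox10. Nab1, a corepressor that works with Egr factors in myelination, fell 1.25-fold (33.61 ± 1.27 and 26.86 ± 0.337 CPM, edgeR adjusted p = 0.0144). The Ngfr and Nab1 calls were lost when some libraries were left out: Ngfr without 212, 213, 208 or 211 and Nab1 without 213, 208 or 211 (edgeR adjusted p = 0.0646 to 0.111 and 0.0525 to 0.0882). Moxd1 passed in the fit adjusted for sex, at 0.74 on the log2 scale (edgeR adjusted p = 0.0463), and not without controls 212 and 213 (0.74, edgeR adjusted p = 0.0836). With sex as a covariate Ngfr, Nab1, Prx, Egfr and Erbb4 did not (edgeR adjusted p = 0.111 to 0.37).

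Several other genes of this list had all deletion libraries above the controls without passing. Dhh, the hedgehog ligand that Schwann cells secrete, had 0.91, 1.13 and 0.88 CPM among controls and 2.80, 1.21 and 1.47 CPM after deletion (edgeR adjusted p = 0.135). Pou3f1, a transcription factor of cells about to myelinate, had 0.48, 0.95 and 1.06 CPM and then 1.42, 2.10 and 1.18 CPM (edgeR adjusted p = 0.147). Ednrb, the endothelin receptor of crest and glial precursors, was at 24.13 ± 1.25 and 29.58 ± 5.22 CPM (edgeR adjusted p = 0.155), and it passed without library 221 (edgeR adjusted p = 0.0429). In all, 5 of 22 had deletion libraries above every control and 2 below, beside 14.1% and 13.5% of all genes. The 2 below were Nab1 and Zeb2, the latter at 137.8 ± 6.36 and 120.9 ± 10.7 CPM (edgeR adjusted p = 0.125).

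Of 12 tested myelin genes, 2 rose and 0 fell, beside 3.65% and 3.37% of all genes, with a median log2 fold change of 0.13. Prx, which encodes periaxin of the myelinating Schwann cell, rose 1.24-fold (24.43 ± 0.914 and 30.38 ± 0.903 CPM, edgeR adjusted p = 0.0202), a call lost without 213, 208 or 211 (edgeR adjusted p = 0.112, 0.0748 and 0.0634). The lowest fold change of the list was that of Gldn (gliomedin, of nodes of Ranvier), with 0.16, 1.80 and 3.04 CPM among controls and 0.06, 0.18 and 0.42 CPM after deletion (edgeR adjusted p = 0.214), with a control as low as the deletion libraries. The remaining 3 myelin genes, Gjb1, Pmp2 and Cldn19, held 0, 2 and 40 counts in all 6 libraries together and were not tested.

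**Figure D5:**
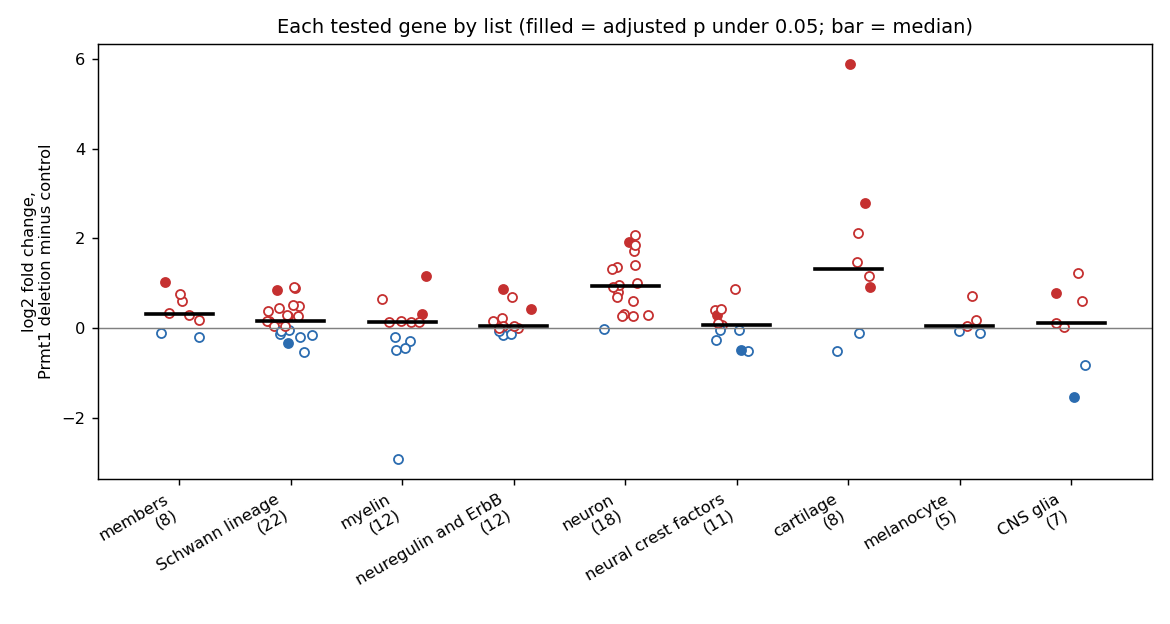
Log2 fold change (vertical axis, Prmt1 deletion minus control) of each tested gene in the members and 8 supporting lists, with the number tested in brackets, filled where the adjusted p was under 0.05 and with black bars for medians. The member median is 0.32, those of the Schwann lineage, myelin and neuregulin lists are 0.17, 0.13 and 0.05, and those of the neuron and cartilage lists are 0.95 and 1.32.

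Neuron genes were highest in the same libraries. Of 18 neuron genes 1 rose and 0 fell, beside 3.65% and 3.37% of all genes. Fold changes were above 0 in 17, beside 50% of all genes, and the median log2 fold change was 0.95. At an unadjusted p under 0.05 edgeR gave 13 of the 18, beside 10 of 22 Schwann lineage genes, 3 of 12 myelin genes and 3 of 8 members. The share of all tested genes at that unadjusted threshold was not computed. After adjustment DESeq2 called 10 of the neuron genes, beside 3, 2 and 3 in those lists and 2125 of all 19284. With limma voom 4 neuron genes were called, beside 1171 of all genes. Nefm, a neurofilament subunit, had 15.52, 10.53 and 12.48 CPM among controls and 63.87, 34.97 and 27.46 CPM after deletion. Sox10, Fabp7, Cdh19 and S100b had the same order of deletion libraries, and so did Mbp and Pmp22, whose means were lower after deletion. Nefm did not pass with edgeR (adjusted p = 0.0877). It passed with DESeq2 (adjusted p = 0.00083), limma voom (adjusted p = 0.022), robust=FALSE (edgeR adjusted p = 0.00927) and without library 208 (edgeR adjusted p = 0.00985). The list summed to 165 to 182 CPM in the controls and to 351, 272 and 215 CPM in libraries 208, 211 and 221. The part of nerve content in the glial values was not tested.

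Markers of other cell types were read in the same libraries. In the melanocyte list, summing to 32.6 to 35.4 CPM in controls and 30.2 to 38.5 CPM in deletion libraries, 0 of 5 tested genes passed with edgeR, also 0 at an unadjusted p under 0.05 and 0 by DESeq2 or limma voom. Kit alone made up 26.23 to 28.96 CPM of that sum in the controls and 24.30 to 32.59 CPM in the deletion libraries. Mlana was at 0 in every library and Tyr held at most 5 counts in a library. The gene of smallest p there was Pmel (edgeR adjusted p = 0.33). In the central glia list, summing to 125 to 132 and 133 to 151 CPM, Slc1a2, a glutamate transporter, rose 1.73-fold and Aqp4, a water channel, fell 2.89-fold. Slc1a3, of the same list, alone made up 116.18 to 120.11 CPM of the sum in the controls and 121.33 to 138.09 CPM in the deletion libraries. The Slc1a2 call was lost when 208 or 211 was left out and in the fit adjusted for sex (edgeR adjusted p = 0.0567 to 0.223). The Aqp4 call was kept only without 220 when each library was left out in turn, and was lost with limma voom (limma adjusted p = 0.0697) and with sex as a covariate, where its log2 fold change went from -1.53 to -0.62 (edgeR adjusted p = 0.435). In the same list the oligodendrocyte factor Olig2 held at most 6 counts in a library and Mog at most 0.62 CPM. In the salivary gland list, summing to 3.17 to 4.34 and 1.88 to 3.0 CPM, 0 of 4 tested genes passed with edgeR (1 at an unadjusted p under 0.05, 0 by DESeq2 and 0 by limma voom), Dcpp1 was at 0 and Bhlha15 had the smallest p (edgeR adjusted p = 0.139). Skeletal muscle genes, none of them in the glial lists, summed to 225 to 254 and 441 to 658 CPM. Of these 6 genes 5 were called higher, beside 3.65% of all genes, including Myog, Tnnc1 and Myod1. Of 9 red cell genes 0 passed with edgeR (0 at an unadjusted p under 0.05, 0 by DESeq2 and 0 by limma voom). Hbb-y had the smallest p among them (edgeR adjusted p = 0.412). The red cell list summed to 3010 to 3900 CPM in the controls. In libraries 208, 211 and 221 it summed to 3420, 3810 and 1740 CPM. In the neural crest factor list 1 of 11 rose, Sox9, and 1 fell, Tfap2a, from the AP-2 family of crest and epithelial regulators. The shares over all genes were 3.65% and 3.37%. The Tfap2a call was lost without 212, 213, 208 or 211 (edgeR adjusted p = 0.0505 to 0.115) and with sex as a covariate (edgeR adjusted p = 0.249), so neither call of this list held through these fits.

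Among 13509 named genes with a mean of 1 CPM or more, the 6 whose profile over the 6 libraries lay nearest to that of Sox10 were Camk2b, Rell2, Vwa5b2, Synm, Qprt and Pak7. Their root mean square distances, on log2 CPM centred per gene, were 0.09 to 0.11, beside 0.37 for a gene with the same level in every library. Of the members, Cdh19 (0.22), Erbb3 (0.22), S100b (0.26), Fabp7 (0.28) and Foxd3 (0.32) were nearer to Sox10 than such a flat gene, and Pmp22 (0.40) and Mbp (0.43) were farther. With 6 libraries many genes share so short a profile by their group difference alone, and 296 others of the 19284 tested genes lay nearer to Sox10 than Erbb3 did.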

How the data were processed

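Per the submitters' processing notes, the build was mm10 and the tools were Partek, STAR 2.4.1d and CASAVA 1.8.2. The step each did, the annotation and the strand setting were not given in the sources used here. Per gene symbol the authors deposited estimated counts (expected counts), not normalized, of which 23.0% to 23.8% are not whole. Each column name shows its group, not which numbered sample it is.

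Counts were rounded, filtered with filterByExpr (minimum count 10, total 15; 19284 of 49492 genes kept), scaled by TMM and tested with edgeR 4.0.16 (glmQLFit with robust=TRUE, glmQLFTest, threshold 0.05, R 4.3.3), tested on simulated data. Fold changes are deletion minus control, and SE is the fold change over the square root of F. Positions and exon lengths are from GENCODE M21 (GRCm38, which mm10 names). In it, the Foxd3 exons share 89 bases with the microRNA gene Gm23366, and no other member shares exon bases with another gene.

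Members and the 11 supporting lists were chosen with earlier results of these data known. Named were the members, Prmt1, up to 3 genes of smallest p past the threshold per list (or the 1 of smallest p), and the 6 genes nearest to Sox10. Ednrb, Dhh, Pou3f1, Col11a2, S100a1, Erbb2, Nrg1, Nefm, Gldn, Gjb1, Pmp2, Cldn19, Mlana, Tyr, Olig2, Mog, Dcpp1, Kit and Slc1a3 were named after their values were seen. The same holds for Zeb2, Gap43, Nefl and Dcx. Some genes counted in the myelin, neuron and Schwann lineage lists, called genes among them, are not reported here by name. Alternatives were DESeq2 size factors, upper-quartile factors, the DESeq2 1.42.0 Wald test, limma 3.58.1 voom, no filter, a filter of 1 CPM in 3 libraries, robust=FALSE, sex as a covariate, leaving out erythroid and muscle genes, and leaving out each library. Leaving out controls 212 and 213, and libraries 220 and 221 (apart on the second principal component) as a covariate, were added after seeing the data. Libraries of the same group all differed beyond sampling noise (chi-square divided by its degrees of freedom was 7.79 to 37.96).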

Additional observations from a re-analysis of the deposited data

How the results depend on the processing

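All 8 members kept the direction of their fold change under each of 17 alternatives. S100b ranged from 0.92 to 1.10 (log2) with 1 library left out and kept its call there. It lost it with sex as a covariate (1.09, edgeR adjusted p = 0.0968) and without controls 212 and 213 (1.09, edgeR adjusted p = 0.152), both of which rest on control 220 alone. Sox10 and Erbb3 passed with the DESeq2 Wald test (log2 fold changes 0.61 and 0.30, DESeq2 adjusted p = 0.0109 and 0.0195), with no filter on low counts (0.61 and 0.30, edgeR adjusted p = 0.0447 and 0.00974), with libraries 220 and 221 as a covariate (0.59 and 0.30, edgeR adjusted p = 0.0311 and 0.0223) and without library 221. With 1 library left out Sox10 ranged from 0.36 to 0.77 and Erbb3 from 0.25 to 0.39. Foxd3, Fabp7, Cdh19, Mbp and Pmp22 passed under none. The cause of these changes was not tested. The count of 1352 genes past the threshold was 2125 with the DESeq2 Wald test, 129 with sex as a covariate, 89 without controls 212 and 213 and 356 to 1872 with 1 library left out, lowest without control 213 (545 without 208 and 711 without 211). The supporting genes past the threshold numbered 20, with 36, 7, 7 and 10 to 26 in these settings (10 without 213 or 208, 12 without 211). No paired analysis was possible because the table's columns do not carry the replicate numbers of the labels. With 96 to 275 estimated counts per library, Cdh19, Foxd3 and S100b are the members whose values are most limited by depth.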
